A study of Bos taurus with 16 samples.

Results

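The genes described here encode the adhesion and contact-signalling proteins of cell membranes, namely cadherins, protocadherins, claudins, nectins, Eph receptors and ephrins. They were chosen by name: every autosomal site was taken whose gene symbol starts with CDH, CLDN, CELSR or NECTIN followed by a digit, or with PCDH, EPHA, EPHB, EFNA or EFNB. This gave 1123 sites in 67 genes, out of 121988 autosomal sites with a gene and 199395 sites in all. Of the 67 genes, 62 had 2 or more sites and entered the comparisons of gene means, against 8361 such genes in the whole table. CLDN5, EPHA3, EPHA7, NECTIN3 and PCDH15 had 1 site each, and EFNB1 and PCDH19 were left out because their 43 sites lie on chromosome X. CELSR1 alone contributed 239 sites, which were 21.3% of the total.

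The samples were endometrial cells brushed from the uterus of multiparous Holstein-Friesian cows of 1 commercial herd, and DNA methylation was measured by reduced representation bisulfite sequencing (RRBS), a method that reads CpG-rich fragments of the genome. From day 12 after calving the cows received either a control diet (CON) or the same diet with rumen-protected methionine (MET). The diets were assigned at random within pairs matched by parity, earlier milk yield and the calving date foreseen. The labels do not trace these pairs to libraries, so the comparisons here are unpaired. All cows were inseminated at a heat between days 50 and 64, brushed 4 to 8 h later, and later found pregnant (P) or not pregnant (noP). Each of the groups MET_P, MET_noP, CON_P and CON_noP had 4 libraries, which are called here by the number in the header of the table, such as S14. Groups were thus set by an outcome that was known only after the sampling, the diet was given to whole animals, and no strain or transgene was involved. The study isolated DNA from more brushed samples than the libraries listed here and does not say how samples map to libraries, so it is not known whether a library holds 1 cow or several, and p-values measure the spread between libraries. The values are percentages of methylated reads at single cytosines, without read counts. The study's methods required at least 10 reads at a position, and above that minimum the depth behind each value is unknown. By group, the paper reports the most raw reads and mapped CpGs in MET_P, but the most bases after trimming in MET_noP. Depth thus differed between groups, and its part in any difference below was not tested.

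Cadherins hold neighbouring cells together through calcium-dependent contacts and are tied to the actin skeleton by catenins, while nectins start such contacts and claudins seal the tight junctions that close the spaces between epithelial cells. Eph receptors are tyrosine kinases that bind ephrins on the next cell, so both partners signal and cells sort or attach accordingly. In the endometrium these proteins shape the luminal and glandular epithelium to which an embryo attaches. In most mammalian genes, CpG-rich promoters carry little methylation and the remaining CpG sites carry much.

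Sites with a value of zero or no value in any library had been removed from the table, so fully unmethylated promoters cannot be seen in it. The lowest value at a member site was 1.14%. CLDN1, CLDN4 and EFNA1, which had been chosen for a look because epithelial cells use them, had no site. The table gives no exon, intron or promoter labels, and no annotation of its genome build, ARS-UCD1.2, was used here.

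Libraries S14 (CON_P) and S25 (MET_noP) had the highest levels at epithelial genes, S25 by a small margin over S29. A list of epithelial markers, of which 11 of 14 genes had sites, had a mean methylation level of 48.9% in S14 and 44.2% in S25, against 30.4% to 42.6% in the other 14 libraries. EPCAM, a defining epithelial marker, had no site. For a leukocyte list (17 of 23 genes with sites) the level was 58.9% in S14, 56.8% in S25 and 48.7% to 56.1% in the others. Both libraries were thus highest on this list as well, and the trait was not particular to epithelial genes. For a stromal and endothelial list (9 of 13 genes) it was 69.9% and 73.4%, against 68.7% to 71.8%. Methylation levels do not name a cell type, and the part of cell mixture in any difference below was not tested. Values without these libraries are given beside the results that they move most.

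Across the 1123 sites the mean methylation level was 60.4%, and it ranged from 58.2% to 61.98% between libraries. All autosomal sites with a gene averaged 67.5%, with a range of 65.5% to 68.8%. Of the 1123 sites 44.5% exceeded 80%, against 54.5% over all genes, and 21.0% lay below 20%, against 15.8%. The lower share above 80% was not shared by all families. It was 6.93% in the protocadherins, 35.1% in the claudins and 37.4% in the EphA receptors. Cadherins (52.6%), ephrins (53.7%) and EphB receptors (55.9%) were near all genes, and nectins (60.5%) and CELSR cadherins (66.4%) lay above. By group the mean of the 1123 sites was 61.3% ± 0.62 for MET_P and 60.8% ± 1.1 for MET_noP (SD, n = 4). It was 60.1% ± 1.5 for CON_P and 59.6% ± 1.2 for CON_noP (SD, n = 4), and the ranges of the groups overlapped. Taken over sites, the families differed far more than the groups did. CELSR cadherins averaged 76.6%, EphB receptors 70.0%, nectins 67.6%, classical and other cadherins 65.3%, ephrins 61.6%, EphA receptors 56.8%, claudins 48.6%, the clustered protocadherins 43.2% and the other protocadherins 26.2%. Library ranges within a family were narrower than the steps between the extremes of this order, but neighbours such as nectins (63.8% to 72.0%) and cadherins (60.7% to 67.0%) overlapped. Genes with many sites weigh most in these means. CELSR1 held 239 of the 286 CELSR sites, and EPHA2 and EPHA8 held 41 and 30 of the 115 EphA sites. Genes of a family could differ widely, from 7.14% in CDH1 to 96.3% in CDH5 among the cadherins, so the order holds for means over sites only.

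**Figure D1:**
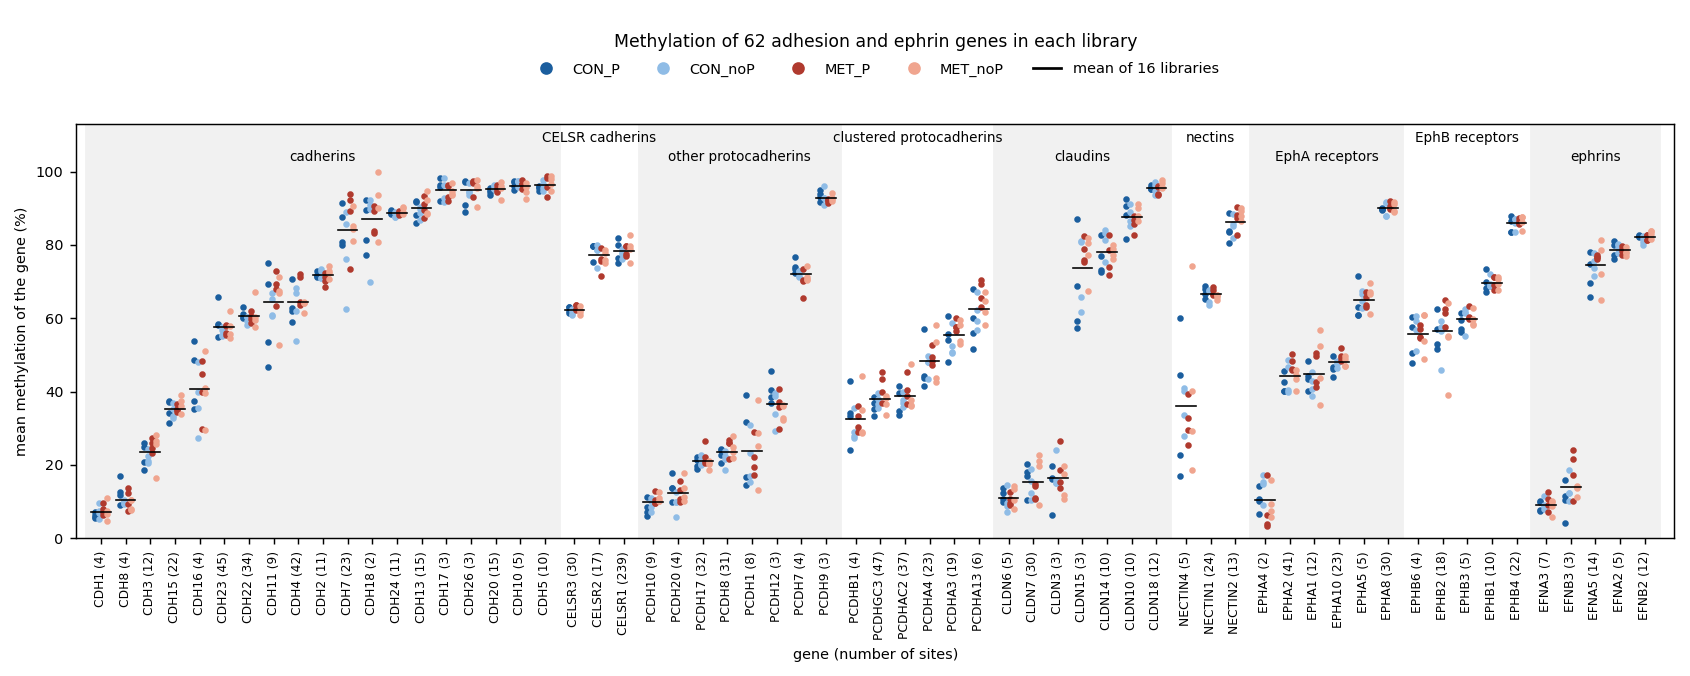
Mean methylation level (%) of each of the 62 genes with 2 or more sites, grouped by family and ordered by level, with 1 dot per library coloured by group and a bar at the mean of the 16 libraries. The levels ran from 7.14% in CDH1 to 96.3% in CDH5, and the dots of NECTIN4 spread the most, from 16.9% to 74.2%.

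Among the cadherins, CDH1, which encodes the E-cadherin of epithelial junctions, had the lowest level of all 62 genes. Its 4 sites on chromosome 18 averaged 7.14% and ranged from 4.64% to 11.1% between libraries. CDH3, the P-cadherin gene beside it on the same chromosome, averaged 23.5% over 12 sites, and 8 of these lay below 20%. The opposite end was held by CDH5, the VE-cadherin gene of endothelial cells, with 96.3% over 10 sites, CDH10 with 96.2% over 5 and CDH20 with 95.3% over 15. CDH5 had no site below 91.1%. CDH13, which encodes a cadherin without a cytoplasmic part, averaged 89.95% over 15 sites with a range of 85.9% to 94.7%. CDH2, the N-cadherin gene, joined both states, with 3 sites below 20% and 8 above 80% with none between.

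Taken over sites, the protocadherins had the lowest levels of the families. PCDH10, a protocadherin of the unclustered kind, averaged 9.76% over 9 sites, and none of these exceeded 15.5%. PCDH17 had 29 sites between 5219016 and 5221044 on chromosome 12 that averaged 13.98%, while 3 sites about 0.1 Mb away, at 5107261 to 5107292, averaged 89.7%. In PCDH8, 31 sites within 3.02 kb averaged 23.5%, and 17 of them lay below 20%. Over the 9 unclustered genes 63.2% of the 95 sites were below 20%, and PCDH17 with 32 sites and PCDH8 with 31 weigh most in this share. Not all of these genes were low: PCDH7 averaged 71.9% over 4 sites, PCDH9 92.9% over 3 and PCDH15 79.5% at 1 site.

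The clustered protocadherins, which lie side by side on chromosome 7 and of which neurons each use a few, held the largest share of intermediate sites of the 9 families. Of their 136 sites, 111 (81.6%) lay between 20% and 80%, where all genes had 29.7% of their sites. Along the chromosome, PCDHA3 (51903812 to 51903935) averaged 55.4%, PCDHA4 48.2%, PCDHA13 62.6%, PCDHAC2 38.7%, PCDHB1 32.5% and PCDHGC3, whose last site lies at 52592185, 37.9%. The intermediate level was met within short stretches: the 19 sites of PCDHA3 lay within 124 bp and ran from 24.8% to 85.1%, and each library gave a mean between 48.1% and 60.7%. It was not met throughout. In PCDHGC3, 5 sites at 52565713 to 52566733 averaged 8.92% and 1 site at 52592185 averaged 95.1%. Alpha and gamma protocadherins share their last exons, so a site named PCDHAC2 or PCDHGC3 may lie in several transcripts.

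The CELSR genes encode large cadherins with seven-pass membrane anchors that set planar cell polarity. CELSR1 was measured at 239 sites over 142 kb of chromosome 5 (116658334 to 116799933) and averaged 78.4%, with library means from 75.0% to 82.6%. Of these sites 160 exceeded 80%, 66 lay between and 13 were below 20%. Its first stretch of 15 sites averaged 96.1% and stayed between 94.9% and 97.1% in all 16 libraries. At 9.82 kb from the first site, 18 sites at 116668152 to 116669745 averaged 31.4% and ran from 17.4% in S17 to 48.1% in S14. CELSR3 averaged 62.3% over 30 sites, of which 10 lay below 20% and 18 above 80%, and its library means stayed within 60.8% and 63.7%. CELSR2 averaged 77.2% over 17 sites.

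Claudins split into a low and a high set. CLDN6 (10.9%), CLDN7 (15.4%) and CLDN3 (16.4%) were low, and CLDN7 was the best covered of them, with 30 sites in 935 bp of chromosome 19 (26971405 to 26972339). All its sites had means between 8.38% and 21.8%, and its libraries ran from 8.99% in S17 to 22.8% in S25. CLDN3 and CLDN7 are barrier claudins of epithelia. CLDN18, the claudin of stomach and lung, averaged 95.6% over 12 sites, CLDN10, which forms ion-selective pores, 87.7% over 10 and CLDN14 78.1% over 10. Among the nectins, NECTIN2 averaged 86.2% over 13 sites and NECTIN1 66.5% over 24, while NECTIN4, an epithelial nectin, averaged 36.0% over 5.

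Eph receptors covered the whole range. EPHA8, a receptor known from the nervous system, averaged 90.1% over 30 sites and EPHB4, the receptor of veins, 86.0% over 22. EPHA2, a receptor of epithelial cells, averaged 44.3% over 41 sites, with 9 below 20% and 5 above 80%. EPHA1 averaged 44.9% over 12 sites and EPHB2 56.4% over 18. Of the ephrins, EFNA3 was low at all 7 of its sites, with a mean of 9.15%, whereas EFNB2, the ligand of EPHB4, had 10 of 12 sites above 80% and a mean of 82.2%. In 27 of the 62 genes at least 1 site lay below 20% and at least 1 above 80%.

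**Figure D2:**
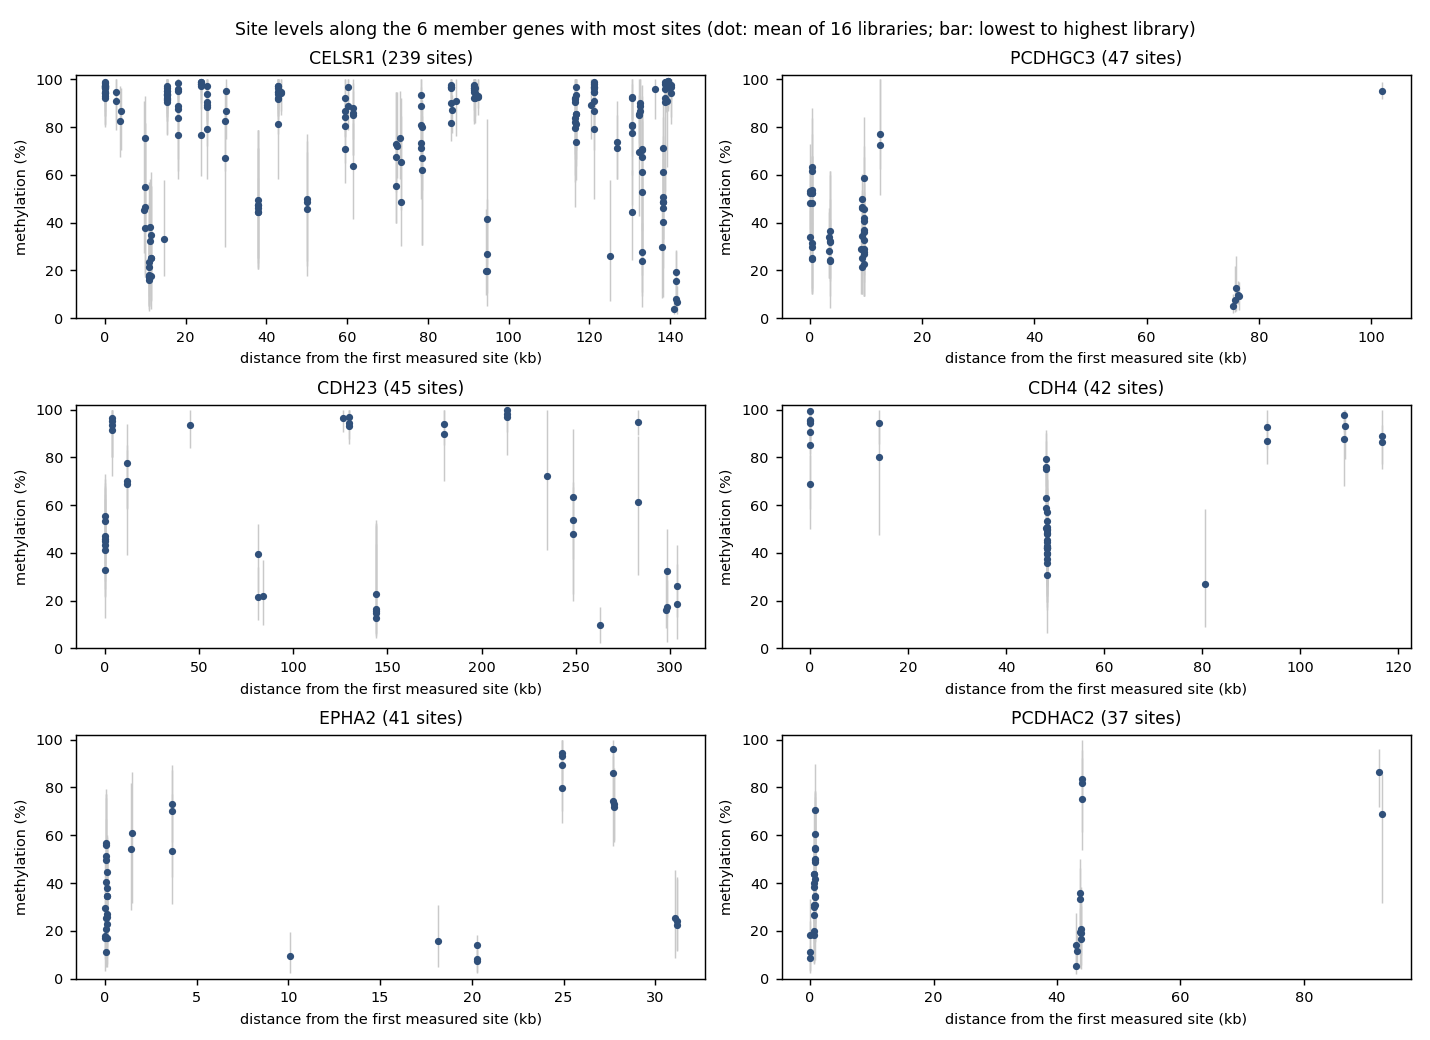
Methylation level (%) of each site against its distance (kb) from the first measured site in the 6 genes with most sites, with dots at the mean of 16 libraries and bars from the lowest to the highest library. In CELSR1 most stretches sit above 80%, and long bars are found at stretches of intermediate level, also above 60%. The median SD of its sites within groups was 13.4 points between 20% and 60% and 11.2 between 60% and 80%. The 25 sites of CDH4 in 171 bp average 49.7%.

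Levels changed over kilobases rather than between neighbours. Of 221 stretches formed by sites of a gene less than 1000 bp apart, 136 held 3 or more sites, and 21 of these averaged below 20%, 45 between 20% and 80% and 70 above 80%. Consecutive sites 2 to 50 bp apart differed by a median of 4.10 percentage points over 727 pairs, and those more than 1000 bp apart by 18.2 over 154 pairs. Over all genes the same medians were 3.48 and 20.1. CDH23, a cadherin best known from the tip links of inner-ear hair cells, showed the pattern in its 45 sites over 304 kb of chromosome 28: 4 sites at 27661669 to 27661720 averaged 94.1% while 5 sites at 27801861 to 27801890 averaged 16.5%. In CDH4, 25 sites at 55225839 to 55226009 of chromosome 13 averaged 49.7%, and 7 sites at the first measured end averaged 89.8%.

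The spread between libraries depended on the level. Within a group, the median SD of a site was 3.72 percentage points below 10%, 11.3 between 40% and 60% and 3.60 above 90%. All genes gave 3.62, 12.2 and 3.46 in these classes. The SD of a gene mean within groups had a median of 2.71 percentage points over the 62 genes, with 0.688 for CDH24 as the lowest and 16.2 for NECTIN4 as the highest. By the median SD of their sites, NECTIN4 (21.3 points), PCDH1 (13.05), EPHB2 (10.7), CDH7 (10.3) and EPHA1 (9.99) varied the most among genes with 5 or more sites. CDH7 owed its range to libraries other than S14 and S25, from 62.6% in S16 to 93.9% in S15.

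NECTIN4 on chromosome 3 was at 60.04% in S14 and 74.2% in S25, and at 16.9% to 44.6% in the other 14 libraries. PCDH1, a protocadherin of airway and other epithelia, was at 39.0% and 37.6% in these libraries and at 13.03% to 31.6% in the others. CELSR1 was at 81.9% and 82.6%, against 75.04% to 79.98%. These were the 3 genes of 62 in which both libraries exceeded all others, and PCDHGC3 was the 1 gene in which both fell below all others (33.4% and 33.5%, against 35.4% to 45.2%). This count was not taken over all genes, so it has no background. Over all autosomal sites with a gene S14 was at 68.8% and S25 at 68.6%, near the top of the range of 65.5% to 68.8%. Within CELSR1 the shift lay in the less methylated sites: the 36 sites between 20% and 60% averaged 57.0% in S14 and 55.0% in S25, above the 26.2% to 53.6% of the others, while the 160 sites above 80% averaged 92.9% and 94.2%, inside the range of 91.9% to 94.4%.

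The gene means were therefore set against the epithelial list over the 16 libraries, a relation chosen after the values were seen. It was computed for all 8353 genes with 2 or more sites outside that list, with 100000 permutations and Benjamini-Hochberg adjustment. By Spearman's rho 5 of 62 member genes (8.06%) passed an adjusted p of 0.05, where 5.4% of all genes did. CLDN7 rose with the list (rho = 0.88, adjusted permutation p = 0.0059, Pearson's r = 0.83, adjusted p = 0.0048), as did CELSR1 (rho = 0.82, adjusted permutation p = 0.014, r = 0.86, adjusted p = 0.0022). PCDH1 (rho = 0.77, adjusted permutation p = 0.026, r = 0.81, adjusted p = 0.0057) and CDH23 (rho = 0.77, adjusted permutation p = 0.026, r = 0.82, adjusted p = 0.0063) went the same way. EPHB2 ran opposite by rank (rho = -0.75, adjusted permutation p = 0.032), although its r of -0.58 did not pass (adjusted p = 0.14). NECTIN4 passed by r (0.80, adjusted permutation p = 0.0092) but not by rho (0.70, adjusted p = 0.056).

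S14 and S25 are the libraries farthest from the median of the list, although S30, the lowest at 30.4%, was nearly as far from it as S25. Without them no member gene passed by rho or r in 14 libraries, while 21 of all genes still passed by rho, and 9 of 62 member genes (14.5%) had an unadjusted permutation p under 0.05, near the 13.1% of all genes. The coefficients stayed of like size for CLDN7 (rho = 0.85, r = 0.81), CELSR1 (0.74, 0.78), CDH23 (0.71, 0.73) and EPHB2 (-0.76, -0.63), and fell to 0.66 and 0.64 for PCDH1 and to 0.56 and 0.66 for NECTIN4. Taken as deviations from group means, the values of r were 0.83 for CLDN7, 0.91 for CELSR1, 0.81 for PCDH1, 0.82 for CDH23, 0.81 for NECTIN4 and -0.57 for EPHB2. What the libraries share that moves these genes together was not tested.

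**Figure D3:**
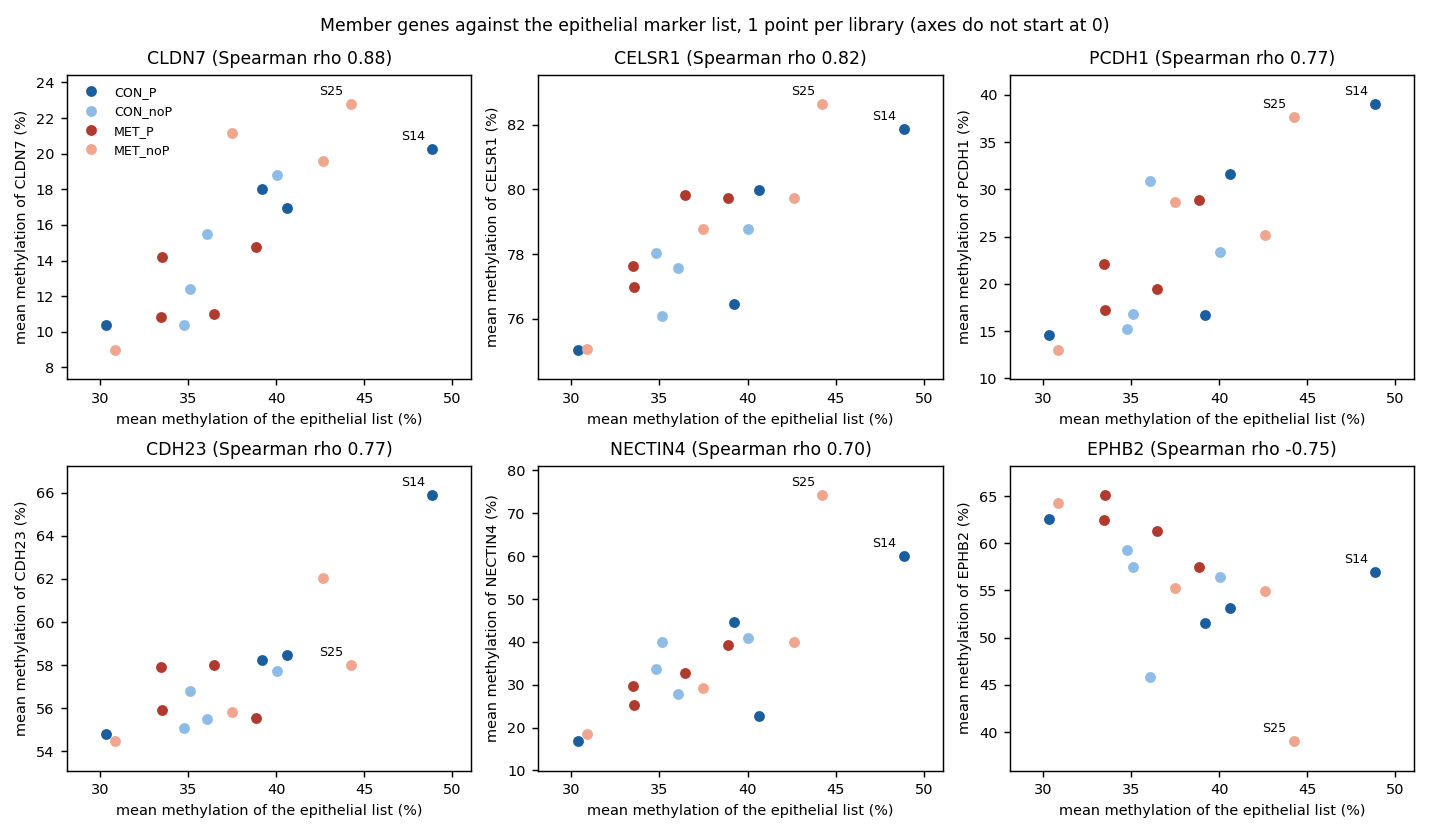
Mean methylation level (%) of 6 genes against the mean of the epithelial marker list (%), 1 point per library coloured by group, with axes that do not start at 0. CLDN7, CELSR1, PCDH1, CDH23 and NECTIN4 rise with the list, EPHB2 falls, and S14 and S25 lie at the right.

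The first question of the design was whether cows that became pregnant differed from those that did not on the control diet. In CON_P minus CON_noP no member gene and no member site passed an adjusted p of 0.05 (limma), and 0 of 62 genes had an unadjusted p under 0.05, against a background of 3.48% of all genes. Gene differences ran from -4.58 to 6.65 percentage points. At the level of sites 43 of 1123 (3.83%) had an unadjusted p under 0.05, against 3.93% of all sites, and 17 (1.51%) showed no overlap between the 2 groups, against 1.99%. Both shares are near or below the background.

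The largest difference among the sites without overlap was in CDH23. At 27801861 on chromosome 28 the CON_P libraries read 52.6%, 24.4%, 29.1% and 21.4% and the CON_noP libraries 12.5%, 15.3%, 13.7% and 17.3%. All of CON_P lay above all of CON_noP, with S14 far above the rest, and the difference was 17.2 percentage points (adjusted p = 1, limma). Without S14 it was 10.3. At 27801873, in the same stretch of 5 sites, the difference of 16.5 dropped to 7.11 without S14. At the first of these sites MET_noP ran from 12.96% to 32.5% and MET_P from 14.6% to 28.6%, and these groups overlapped. EPHB2 at 129967551 on chromosome 2 was lower in CON_P (48.3% to 62.5%) than in CON_noP (63.6% to 81.2%), and PCDHAC2 at 52054218 likewise (7.69% to 15.8% against 17.5% to 28.6%), with adjusted p = 1 for both.

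The same question on the methionine diet, MET_P minus MET_noP, gave no member gene or site past an adjusted p of 0.05 either. None of the 62 genes had an unadjusted p under 0.05 (background 5.45%), and gene differences ran from -8.71 percentage points for NECTIN4 to 8.24 for EPHB2, both genes in which S25 lay at an extreme of MET_noP. Without S25 the difference of NECTIN4 changed sign to 2.52 and that of EPHB2 was 3.47. NECTIN1 was the 1 gene of 62 (1.61%, against 3.36% of all genes) whose libraries did not overlap, with 67.2% ± 0.97 in MET_P and 65.9% ± 0.57 in MET_noP (SD, n = 4) and an adjusted p of 0.95 (limma). Of the sites, 51 (4.54%) had an unadjusted p under 0.05, against 5.12% of all sites. Libraries did not overlap at 32 sites (2.85%, against 2.9%), higher in MET_P at 24 and lower at 8, and 8 of the 32 lay in CELSR1. CELSR1 held 21.3% of the member sites. The direction of sites without overlap was not counted over all sites, here or in the comparisons below, so these splits have no background.

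Both of the largest positive differences among these were in EPHA2. At 135935410 on chromosome 2 the MET_P libraries read 70.8%, 65.3%, 55.0% and 57.8% and the MET_noP libraries 53.1%, 42.6%, 29.8% and 39.0%, a difference of 21.1 percentage points (adjusted p = 0.90, limma). At 135935417 it was 19.96 (adjusted p = 0.92). These sites belong to a stretch of 19 sites in 132 bp (135935327 to 135935458), whose mean was 36.1% ± 4.4 in MET_P and 30.5% ± 5.3 in MET_noP (SD, n = 4), with overlapping libraries. For decreases, PCDHAC2 at 52011123 was at 20% to 34.6% in MET_P and 38.1% to 50.0% in MET_noP, and EFNB2 at 82242340 on chromosome 12 at 86.4% to 90% against 92.9% to 100%.

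The diets were compared among pregnant cows in MET_P minus CON_P. EPHA2 was the 1 member gene of 62 (1.61%) with an unadjusted p under 0.05, where 7.08% of all genes had one. The count was 5 without S14, 4 without S30 and 0 without S26 or without S19. EPHA2 stood at 50.4%, 48.2%, 45.8% and 46.2% in the MET_P libraries and at 42.7%, 40.3%, 40.2% and 45.7% in the CON_P libraries. The groups just failed to overlap, as in 3.74% of all genes, the difference was 5.41 percentage points (95% interval 1.57 to 9.25) and the adjusted p was 0.70 (limma). In the other groups EPHA2 lay at 39.9% to 48.7% in CON_noP and at 40.3% to 45.8% in MET_noP. EPHA2 belongs to the genes that the study's own lists name, which were made from these samples, so it is no independent observation.

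On the untransformed scale of the intervals, 4 of 62 genes (6.45%) had a 95% interval without 0 in this comparison, against 7.07% of all genes, so the count does not exceed the background. The genes are named after their values were seen. They were PCDHA13 (8.26 percentage points, 0.319 to 16.2), EPHA2, PCDHGC3 (5.24, 0.543 to 9.94) and PCDH7 (-4.26), a protocadherin measured at 4 sites whose interval ends just short of 0. The clustered protocadherins together averaged 45.6% ± 2.4 in MET_P, 41.7% ± 3.2 in CON_P, 43.4% ± 3.3 in MET_noP and 42.2% ± 1.7 in CON_noP (SD, n = 4). In PCDHGC3 the CON_P library S14 was the lowest of all 16 libraries.

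Of the sites in MET_P minus CON_P, 59 (5.25%) had an unadjusted p under 0.05, against 5.83% of all sites, and none passed the adjusted p. Libraries did not overlap at 35 sites (3.12%, against 3.09%), higher in MET_P at 26 and lower at 9, with 9 of them in CELSR1 and 3 each in EPHA2, CDH4 and PCDHGC3. The split by direction has no background, and CELSR1 held 21.3% of the member sites. PCDHAC2 at 52011102 was at 15.4%, 52.0%, 7.69% and 52.2% in CON_P and at 53.6% to 70.0% in MET_P, a difference of 29.5 percentage points, but CON_P itself fell into a low and a high pair. EFNA5, an ephrin-A ligand, was at 81.2% to 84.6% in MET_P and at 38.5% to 76.5% in CON_P at 106512246 on chromosome 7. CELSR1 was lower in MET_P at 116668224 (36.2% to 49.1% against 50.0% to 76.5%) and at 116753003 (22.6% to 30.4% against 38.9% to 58.3%). The adjusted p was 0.83 for these 4 sites.

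Among non-pregnant cows, MET_noP minus CON_noP, no member gene had an unadjusted p under 0.05 (background 6.35%) and none passed the adjusted p. At 40 sites (3.56%) the unadjusted p was under 0.05, against 5.13% of all sites, and libraries did not overlap at 21 (1.87%, against 2.75%), 12 higher and 9 lower in MET_noP. CELSR1 at 116736619 was at 86.0% to 96.7% in MET_noP and 66.7% to 80% in CON_noP, while at 116676387 it was at 75.0% to 91.2% against 91.3% to 94.9%. Differences of both signs were thus found in this gene. PCDHAC2 at 52011110 was at 33.3% to 57.1% against 15.8% to 29.2%, and EPHA8 at 130240152 on chromosome 2 at 85.7% to 96.1% against 96.7% to 100%. The adjusted p was 0.91 for each.

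**Figure D4:**
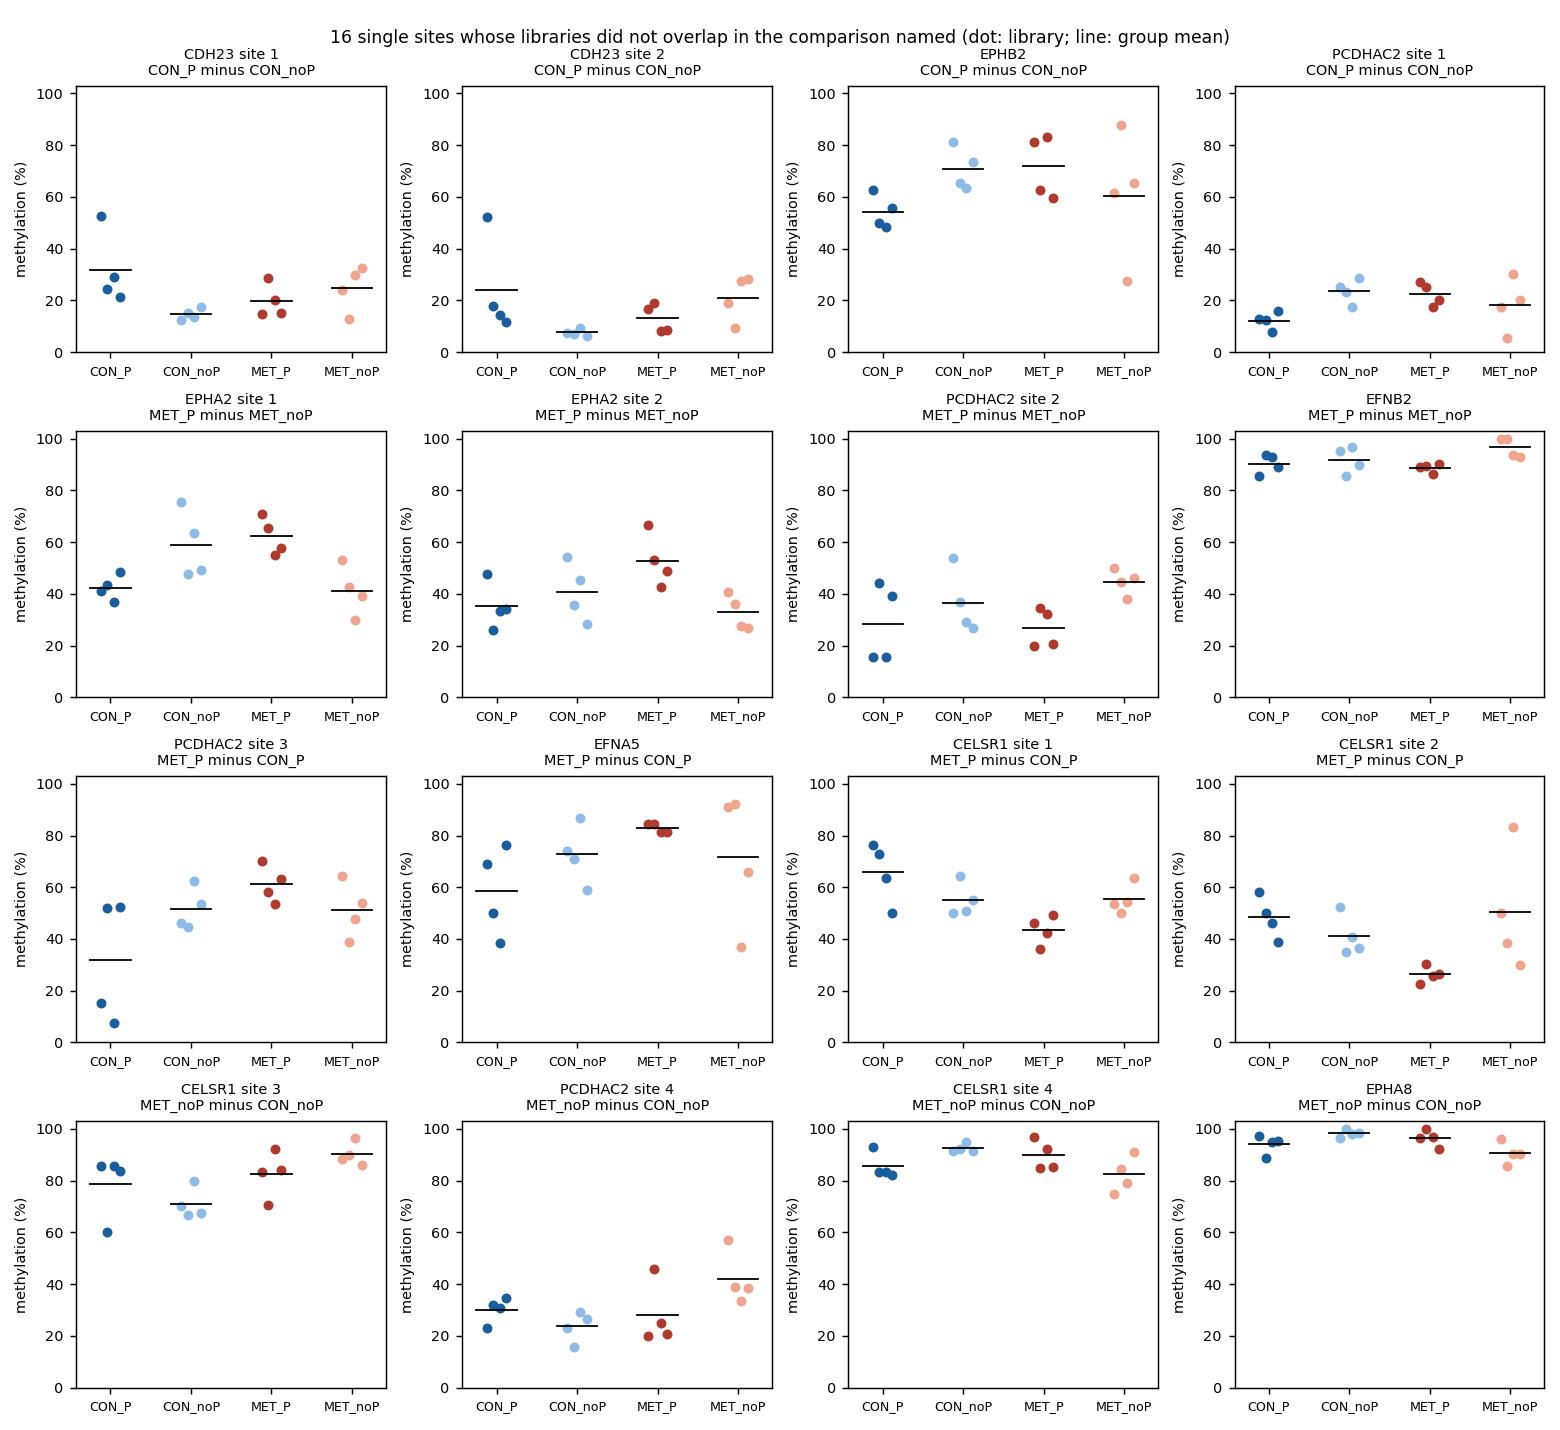
Methylation level (%) of the 16 single sites named in the text, 1 dot per library in each of the 4 groups with a line at the group mean, under the comparison for which each was named. In the 2 panels of CDH23 a single CON_P library stands above 50%.

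Over both diets, 0 of 62 genes (background 3.31%) and 39 sites (3.47%, against 3.89%) had an unadjusted p under 0.05 for P minus noP. For MET minus CON over both outcomes the counts were 2 genes (3.23%, against 8.56%) and 69 sites (6.14%, against 6.05%). PCDH10 was higher on methionine by 2.05 percentage points (0.108 to 4.00, adjusted p = 0.54, limma), with CON_P at 11.1%, 5.98%, 7.22% and 8.42%, CON_noP at 7.23% to 11.1%, MET_P at 9.502% to 12.9% and MET_noP at 10.1% to 12.5%. NECTIN2, which is also a ligand of receptors on lymphocytes, was higher by 3.12 (0.199 to 6.04, adjusted p = 0.55), with 80.4% to 88.6% in CON_P, 82.0% to 88.4% in CON_noP, 82.7% to 90.3% in MET_P and 86.5% to 90.2% in MET_noP. The groups overlapped for both genes. NECTIN2 is named in the study's lists as well. In all, 48 of the 62 member genes (77.4%) were higher on methionine, against 64.9% of all genes, with a median difference of 0.73 against 0.52 percentage points. At the level of sites the shares were closer, with 60.5% of member sites and 57.4% of all sites. Genes read in the same libraries are not independent, and these shares were not tested.

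The interaction of diet and outcome, which asks whether the outcome difference depended on the diet, gave 0 of 62 genes (background 5.39%) and 44 sites (3.92%, against 5.25%) with an unadjusted p under 0.05, and none past the adjusted p. For EPHA2 it was 5.79 percentage points (-0.466 to 12.05, adjusted p = 0.90, limma). PCDHGC3 was the 1 gene of 62 whose interval held no 0, against 5.65% of all genes, with 5.84 (0.278 to 11.4, adjusted p = 0.90), and 3.82 without S14 and S25.

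**Figure D5:**
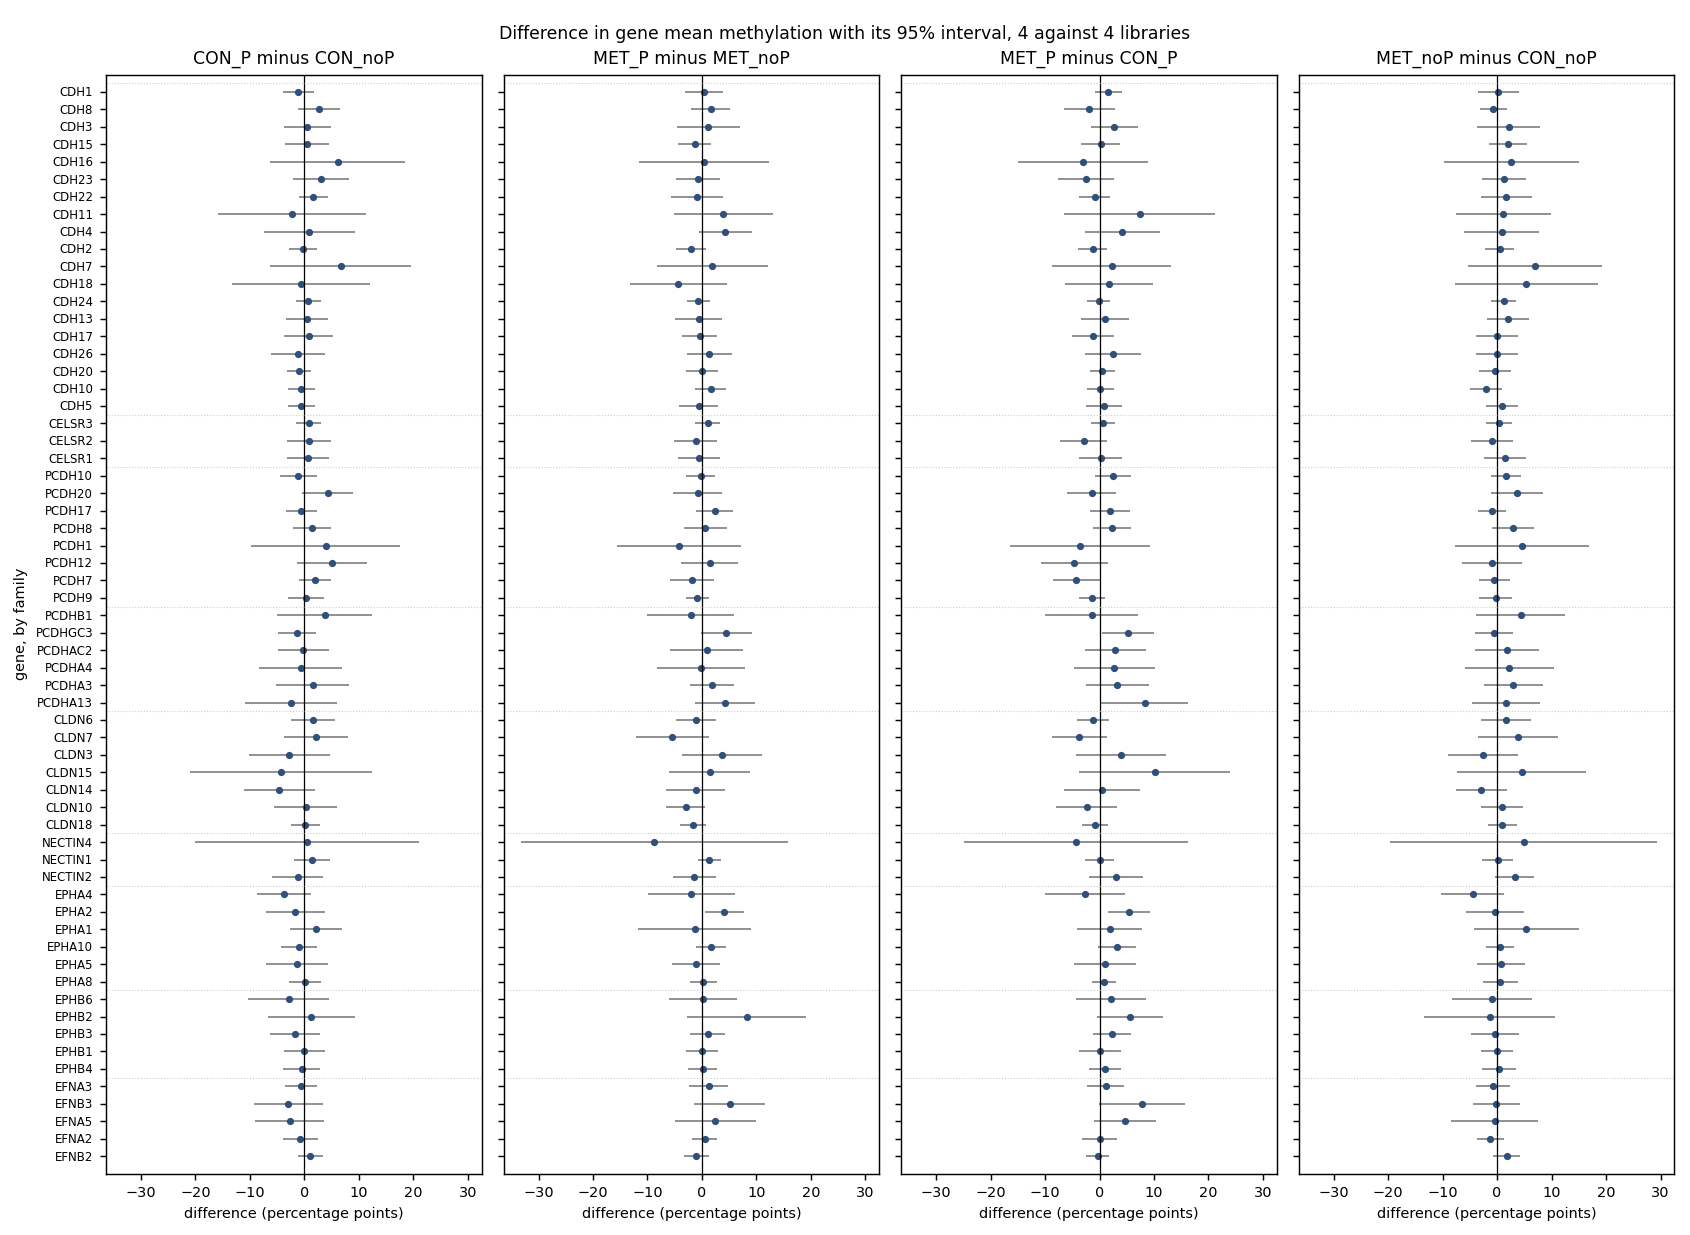
Difference in mean methylation level (percentage points) with its 95% interval for the 62 genes, by family, in the 4 comparisons of 4 against 4 libraries. Most intervals cross 0, and those of NECTIN4 are the widest, from -33.3 to 15.9 in MET_P minus MET_noP.

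Intervals without 0 were found for 0 of 62 genes in CON_P minus CON_noP (3.18% of all genes), 1 in MET_P minus MET_noP (5.23%), 0 in MET_noP minus CON_noP (6.45%), 0 in P minus noP (3.12%) and 4 in MET minus CON (9.02%). Their median half-width was 4.55 percentage points in CON_P minus CON_noP, 4.01 in MET_P minus MET_noP, 4.42 in MET_P minus CON_P and 3.95 in MET_noP minus CON_noP. CDH1 had differences of -1.13 (-3.97 to 1.70), 0.31 (-3.20 to 3.82), 1.63 (-0.878 to 4.13) and 0.19 (-3.57 to 3.94) in this order. Its mean was only 7.14% over 4 sites, so these intervals are wide beside its level. CLDN7 had wider intervals, with 2.14 (-3.75 to 8.02), -5.44 (-12.2 to 1.30), -3.70 (-8.76 to 1.35) and 3.87 (-3.50 to 11.2). For NECTIN4 the intervals ran from -20.2 to 21.1, -33.3 to 15.9, -24.9 to 16.3 and -19.6 to 29.4, and the sign of each difference changed without S14 or without S25. CDH13, CDH22, CDH23 and EPHB4, which the study's lists name, had adjusted p values of at least 0.848 in these comparisons.

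Genes that work with the members were read from the same fits. Of the catenins and other cytoplasmic partners of cadherins, 8 of 16 had 2 or more sites, and none had an unadjusted p under 0.05 in any comparison. Of 14 measured desmosomal, FAT and related cadherins, those with an unadjusted p under 0.05 were 1 with a positive and 1 with a negative difference in MET_P minus CON_P, 2 negative in MET_P minus MET_noP, 1 positive in MET_noP minus CON_noP, 1 positive in MET minus CON and 3 negative in the interaction. The shares over all genes were 7.08%, 5.45%, 6.35%, 8.56% and 5.39% in this order of comparisons. Of 19 other tight junction genes 4 had such a p with a positive difference in MET_P minus CON_P, 4 in MET minus CON, 2 in P minus noP and 1 in MET_P minus MET_noP, where the shares over all genes were 7.08%, 8.56%, 3.31% and 5.45%. Among them was PRKCZ, the polarity kinase, with 7.59 percentage points over 49 sites in the first (0.283 to 14.9, adjusted p = 0.70, limma). Of 14 effectors of Eph receptors 2 had such a p with a positive difference in MET_P minus MET_noP (5.45% of all genes) and 3 in the interaction (5.39%). In MET_noP minus CON_noP 2 had one with a negative difference (6.35% of all genes). SRC, a kinase downstream of many receptors, was in all 3 comparisons. Its difference was 5.54 (0.951 to 10.1, adjusted p = 0.83, limma) in MET_P minus MET_noP. In MET_noP minus CON_noP it was -4.85 (-9.28 to -0.418, adjusted p = 0.75). All 3 share the MET_noP libraries. The lists are short, no set test was run on them, and no partner gene passed an adjusted p of 0.05 in any of the 7 comparisons.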

How the data were processed

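Trim Galore, Bismark with bowtie2 and SAMtools were used by the authors to trim, align to ARS-UCD1.2 and merge the reads, and SeqMonk gave the percent methylation per cytosine position with at least 10 reads. The authors deposited the percent values of 16 libraries, after positions with no value or a value of zero had been discarded, each with the gene that SeqMonk's annotation placed there. No normalization between libraries is stated. Read counts were not used here, so the depth of each value above that minimum is unknown and no interval for a single value can be given.

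Columns were assigned to groups by the group name above them. Gene values were means over the autosomal sites of a gene with 2 or more sites. Sites and gene means were transformed to M = log2((percent + 1)/(100 - percent + 1)) and tested with limma 3.58.1 (R 4.3.3, no trend), with the libraries of the groups compared or, for contrasts over all groups, 16 libraries, and Benjamini-Hochberg adjustment over 199395 sites or 8361 genes. The 95% intervals came from limma on untransformed percent. Correlations used 100000 permutations in Python with scipy. The code of the fits was checked for returning differences planted in simulated data. Those values were independent and normal, so the check does not measure power or false calls in these data.

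Members, gene lists and tests were chosen with earlier results of these data known. The text names, by rule, up to 3 genes and 2 sites without overlap in each direction per comparison with an unadjusted p under 0.05, the 5 lowest, 5 highest and 5 most variable genes among those with 5 or more sites, the 6 genes with most sites, 6 genes of the study's lists and 13 epithelial genes. Other genes appear as members of a family or were named after their values were seen. Alternatives were another offset, untransformed percent, a trend, centred libraries, other gene summaries, all libraries in a single model, strands merged, sites of 10% to 90%, a replicate block and leaving out each library, and, chosen after seeing the data, leaving out S14 and S25 and running every alternative for the further genes whose differences are given. Sites could not be placed in exons or introns, since no annotation of the build was used. No replicates of a group held the same values, with 10.4% of sites identical at most in a pair.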

Additional observations from a re-analysis of the deposited data

Results flagged for a closer look

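In 8 of 232 groups of 4 libraries 1 library lay far from the other 3 by Dixon's test, and chance alone gives about 1 in 20. These were CDH4 in MET_noP, where S29 was lowest at 61.3%, CLDN3 in CON_noP, where S24 was highest at 24.01%, and PCDHAC2 in MET_noP, where S13 was highest at 47.4%. Over all members the lowest MET_noP library was S17 at 59.1%, and over the claudins the lowest CON_P library was S30 at 44.5%. Among single sites, CDH23 at 27801873 reached 52.1% in S14 of CON_P, CELSR1 at 116736619 was lowest at 60% in S18 of CON_P, and CELSR1 at 116676387 was highest at 93.2% in S14 of CON_P.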

How the results depend on the processing

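No member gene passed an adjusted p of 0.05 under any alternative in any of the 7 comparisons, nor when 1 library was left out, where the counts were 0 to 0. With an offset of 0.1 percentage points in place of 1, 2 sites passed in MET_P minus MET_noP (CDH11 at 32758922, adjusted p = 0.0015, and CELSR1 at 116798578, adjusted p = 0.017) and 1 in MET_P minus CON_P (CDH15 at 14263153, adjusted p = 0.0026), where the main count was 0. In each of them all 4 libraries of 1 group read 100%, and the smaller offset widens the distance of such values. Under the replicate block of consecutive library numbers 0 genes and 0 sites passed. These numbers come from no label, and libraries of the same set correlated by -0.12 to 0.095 in their deviations. Whether the numbers mark a shared day or batch is not given, and these correlations cannot settle it.

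The count of member genes at an unadjusted p under 0.05 moved between 0 and 6 in MET_P minus CON_P (main 1), with 6 when all 16 libraries shared 1 model, 5 without S14 and 0 without S26 or without S19. In MET minus CON over both outcomes it moved between 0 and 6 (main 2), with 6 without S17 and 0 without S13, without S16 or with medians over sites. In the other comparisons it stayed between 0 and 4. For sites it ran from 41 to 96 in MET_P minus CON_P (main 59) and from 25 to 84 in MET_P minus MET_noP (main 51). The 2 differences named in CDH23 fell from 17.2 and 16.5 to 10.3 and 7.11 percentage points without S14. Differences of NECTIN4 and CDH1 changed sign. Without S14 and S25 NECTIN4 gave -7.51 in CON_P minus CON_noP, 2.52 in MET_P minus MET_noP, 3.69 in MET_P minus CON_P and -6.34 in MET_noP minus CON_noP, and with 1 library left out it ran from -7.51 to 6.88, -16.04 to 2.52, -10.7 to 3.69 and -6.34 to 12.2. CDH1 ran from -0.627 to 1.51 in MET_P minus MET_noP and from -1.02 to 1.12 in MET_noP minus CON_noP, where it was -1.02 without S14 and S25. With libraries centred, NECTIN4 was -0.64 in CON_P minus CON_noP and CDH1 -0.28 in MET_noP minus CON_noP. EPHB2 fell from 8.24 to 3.47 in MET_P minus MET_noP without S25. The other named differences kept their sign.

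The mean level of all members, 60.4%, became 70.02% as a median over sites, 54.0% as a mean of gene means and 46.9% over sites of 10% to 90%, and stayed between 60.33% and 60.58% when 1 library was left out. The number of members related to the epithelial list fell from 5 to 0 without S14 and S25. Read depth, unknown for each value above the minimum of 10 reads and different between groups, limits every single value.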
